A study of Mus musculus with 12 samples.

Results

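The genes described here are the immunoglobulin variable segments, the V parts of antibody heavy and light chains, in the livers of mice with carbon tetrachloride injury given curcumin. Members were the rows of the count table whose mouse symbol starts with Ighv (heavy chain), Igkv (kappa light chain) or Iglv (lambda light chain) and whose raw counts summed to 20 or more over the 12 libraries. This gave 35 members, 2 Ighv, 31 Igkv and 2 Iglv, of 348 variable segment rows among 56923 gene IDs in the table. The rule used the measured counts, so the presence of these segments is not itself a result.

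RNA of whole liver came from 12 C57BL/6J mice of wild-type genotype, 3 per group, which the labels call biological replicates. Every mouse, controls included, was 6 weeks old at the start and had 200 µL of 7.5% carbon tetrachloride (CCl4) in olive oil injected into the peritoneum 2 times a week for 6 weeks. CCl4 injures hepatocytes and, given repeatedly, is a common model of liver fibrosis. The control mice had CCl4 alone, and the low, medium and high mice also had curcumin, a plant polyphenol from turmeric, by daily gavage for 2 weeks at 25, 50 and 100 mg/kg. The labels do not say whether the controls were gavaged without curcumin, no liver without CCl4 was analysed here, and mice were kept 3 to a cage, so cage and group may coincide.

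A B cell builds its antibody genes by joining 1 variable segment to smaller D and J segments in the heavy chain locus, and 1 variable segment to a J segment in a light chain locus. The joined variable exon is then spliced to a constant exon such as Ighm or Igkc, so a transcript carries both parts. Each B cell clone and its offspring keep the same segments, and plasma cells, the antibody-secreting end stage, hold far more of this RNA per cell than resting B cells. Most mouse antibodies carry a kappa light chain. In whole liver, more cells of the B lineage and more antibody RNA per cell cannot be told apart.

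The segments are close copies of each other, which bears on every count below. Over the variable exon, 19 of the 35 members had another segment of the same locus at an identity of 95% or more, and 29 had one at 90% or more, with a median of 95.3% for the nearest segment. The sources used here do not give how reads that fit several segments were counted, so a count on 1 segment may hold reads of its neighbours. The variable exons of 3 pairs are shown because each pair holds a leading member, with capitals at the bases that differ within the pair. They are read 5′ to 3′ from the GENCODE M21 transcripts, up to the first 300 bases.
The 2 Igkv17 members, on chromosome 6, differed at 6 of 298 bases and had their largest counts in different libraries.
Igkv17-121: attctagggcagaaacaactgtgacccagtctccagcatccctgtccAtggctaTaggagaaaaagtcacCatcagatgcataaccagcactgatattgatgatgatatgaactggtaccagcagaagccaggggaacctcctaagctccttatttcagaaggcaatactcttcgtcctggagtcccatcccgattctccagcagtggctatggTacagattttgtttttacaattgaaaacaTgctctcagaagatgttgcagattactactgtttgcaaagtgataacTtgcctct
Igkv17-127: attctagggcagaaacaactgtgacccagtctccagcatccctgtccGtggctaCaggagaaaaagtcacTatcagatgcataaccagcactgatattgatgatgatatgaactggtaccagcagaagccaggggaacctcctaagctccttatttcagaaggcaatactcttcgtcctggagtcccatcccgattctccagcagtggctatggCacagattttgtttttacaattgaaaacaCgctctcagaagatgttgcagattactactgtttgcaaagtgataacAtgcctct
The 2 lambda members, on chromosome 16, differed at 9 of 305 bases.
Iglv1: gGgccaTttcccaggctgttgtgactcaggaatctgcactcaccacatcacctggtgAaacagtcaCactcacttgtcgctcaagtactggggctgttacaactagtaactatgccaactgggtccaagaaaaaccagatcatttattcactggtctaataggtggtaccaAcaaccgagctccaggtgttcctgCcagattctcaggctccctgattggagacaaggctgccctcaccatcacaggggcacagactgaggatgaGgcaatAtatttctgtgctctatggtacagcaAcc
Iglv2: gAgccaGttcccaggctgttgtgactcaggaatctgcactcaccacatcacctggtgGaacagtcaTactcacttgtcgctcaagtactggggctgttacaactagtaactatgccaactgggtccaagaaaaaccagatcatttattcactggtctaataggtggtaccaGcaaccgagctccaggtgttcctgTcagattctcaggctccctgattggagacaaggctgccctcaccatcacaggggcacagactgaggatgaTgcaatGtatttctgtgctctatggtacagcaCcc
The 2 heavy chain members, on chromosome 12, differed at 32 of 305 bases.
Ighv1-56: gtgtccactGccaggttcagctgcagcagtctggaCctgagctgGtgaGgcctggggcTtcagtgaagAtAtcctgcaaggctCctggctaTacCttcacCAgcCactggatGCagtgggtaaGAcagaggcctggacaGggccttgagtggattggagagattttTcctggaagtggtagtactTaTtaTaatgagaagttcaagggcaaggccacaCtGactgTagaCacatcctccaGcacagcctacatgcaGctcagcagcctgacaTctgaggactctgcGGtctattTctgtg
Ighv1-9: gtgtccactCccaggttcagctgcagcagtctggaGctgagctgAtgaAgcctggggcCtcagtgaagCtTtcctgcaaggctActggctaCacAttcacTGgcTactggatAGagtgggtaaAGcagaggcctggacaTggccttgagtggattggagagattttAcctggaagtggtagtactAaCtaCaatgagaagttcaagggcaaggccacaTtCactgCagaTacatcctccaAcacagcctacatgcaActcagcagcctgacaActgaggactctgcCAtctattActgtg

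The kappa segments Igkv19-93 and Igkv11-125, also on chromosome 6, are shown because they carried the largest single count and the largest count confined to 1 library. Igkv19-93 was the least like its neighbours of those shown, at 78.9% to Igkv10-94. Capitals mark its bases that differ from Igkv10-94 and the bases of Igkv11-125 that differ from Igkv11-106, to which it was 90.9% identical.
Igkv19-93: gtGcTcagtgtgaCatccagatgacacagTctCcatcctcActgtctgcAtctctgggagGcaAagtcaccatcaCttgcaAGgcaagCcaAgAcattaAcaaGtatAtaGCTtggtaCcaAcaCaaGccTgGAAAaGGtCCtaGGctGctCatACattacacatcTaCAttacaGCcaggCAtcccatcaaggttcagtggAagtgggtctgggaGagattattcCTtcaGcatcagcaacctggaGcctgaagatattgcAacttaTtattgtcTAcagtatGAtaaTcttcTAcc
Igkv11-125: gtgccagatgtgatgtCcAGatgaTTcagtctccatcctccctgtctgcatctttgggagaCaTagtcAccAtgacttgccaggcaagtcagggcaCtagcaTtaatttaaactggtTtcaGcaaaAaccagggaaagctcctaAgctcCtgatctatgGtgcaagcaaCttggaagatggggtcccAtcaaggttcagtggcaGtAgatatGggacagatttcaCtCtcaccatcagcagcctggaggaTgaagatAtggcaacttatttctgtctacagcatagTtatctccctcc

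Libraries held 36015134 to 70376474 counts, and genes and nuclear copies of the mitochondrial genome took a large part of them. The share on mitochondrial genes was 58.6%, 60.9% and 64.2% in the control libraries, 63.7%, 64.1% and 43.0% in the low, 48.3%, 55.5% and 60.2% in the medium, and 30.3%, 64.7% and 42.1% in the high libraries. The libraries high 1 and high 3, with the lowest shares, stood apart from high 2 throughout. Levels below are CPM, a count relative to the library total, scaled by TMM, a method that sets libraries to a common scale over most genes. The 3 comparisons of a dose with control share the same 3 control libraries.

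Variable segments were rare transcripts in these livers. Of the 348 rows, 244 were at 0 in every library, 69 summed to 1 to 19 counts, and the 35 members held 1668 of all 2198 counts, or 75.9%. Single values were small. Of 4176 values, 268 were above 0, with a median of 5 and a highest value of 102. Only 13 of these were 1 or 2, while 116 were 3 or 4, so a 0 need not mean that no read was present.

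Each member had a count in high 1, and 28 of the 35 had their largest count there, against 4 in high 3 and 2 in control 2. Without high 1, 18 of the 35 would fall under a sum of 20. The choice of members therefore leans toward that library, and totals over all 348 rows are given beside those of the members. At the threshold, Igkv5-48 and Igkv9-120 summed to exactly 20, while Ighv1-72, Igkv8-30 and Igkv9-124 summed to 19 and Iglv3, the remaining lambda row, to 17. Igkv9-124 had no count in high 1, and 15 of the 19 counts of Ighv1-72 came from it. All 35 members are annotated as functional segments, and none of the 130 variable segment pseudogene rows became a member.

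The summed member counts were 29, 201 and 14 in the control libraries, 14, 35 and 66 in the low, 77, 60 and 76 in the medium, and 815, 25 and 256 in the high libraries. High 1 alone held 48.9% of all member counts, high 3 held 15.3% and control 2 held 12.1%. After scaling, the summed level was 0.730, 3.04 and 0.312 CPM in the controls, 0.546, 0.978 and 0.728 CPM at the low dose, 1.19, 0.918 and 1.18 CPM at the medium dose, and 7.55, 0.587 and 4.06 CPM at the high dose. High 1 and high 3 lay above all other libraries, and high 2 lay below controls 1 and 2.

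Control livers averaged 1.36 ± 1.47 CPM, low livers 0.751 ± 0.217 CPM, medium livers 1.10 ± 0.156 CPM and high livers 4.06 ± 3.48 CPM (SD, n = 3 each). The log2 ratio of means was -0.86 for low, -0.31 for medium and 1.58 for high against control, and in each comparison the groups overlapped. Because the members were chosen from these counts, no p-value is given for the sums. Control 2 set the direction at the lower doses. Without it the ratio was 0.53 for low and 1.08 for medium. For high the ratio was between 0.77 and 2.96 whichever library was left out. These ratios keep the members, which were chosen with high 1 included, so they cannot show how far the ratio for high rests on that library. They were not computed over all variable segment rows.

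Over all 348 rows high 1 and high 3 were again highest, and the contrast with control was smaller. Levels were 2.29, 4.21 and 0.914 CPM in controls, 0.819, 1.31 and 0.860 CPM at the low dose, 1.86, 1.36 and 1.79 CPM at the medium dose, and 9.17, 1.06 and 4.47 CPM at the high dose. The log2 ratios against control were -1.31, -0.57 and 0.99 for low, medium and high. Control 1, at 29 member counts, held 91 counts over all rows, so that most of its variable segment counts lay on segments that were not members.

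**Figure D1:**
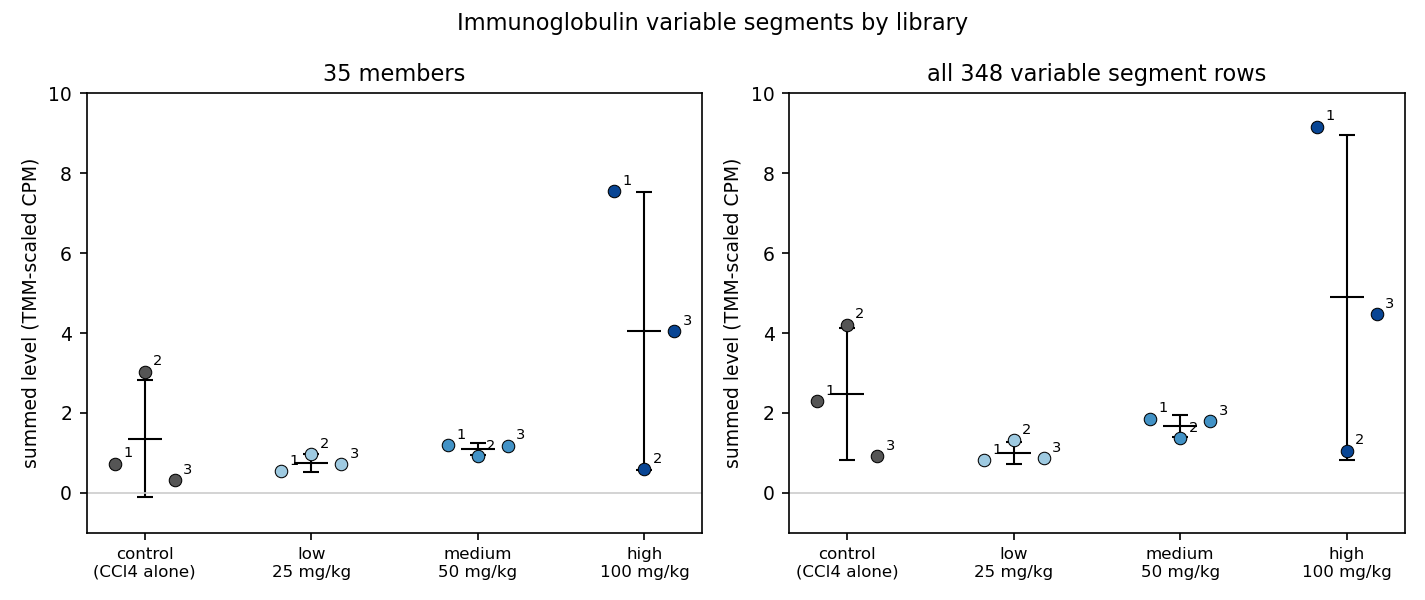
Summed level of variable segments by library, in TMM-scaled CPM (y axis), for the 35 members (left) and all 348 rows (right); points are libraries numbered by replicate, and bars are the mean ± SD of 3. High 1 at 7.55 and high 3 at 4.06 CPM stand above every other library for the members, and high 2 at 0.587 CPM lies among the low-dose and control libraries.

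Counts per variable segment can also be read against the constant exons of the same transcripts. Member counts were 8.81% and 6.11% of the constant gene counts in high 1 and high 3 and 2.64% in high 2, against 1.49%, 4.59% and 1.01% in the controls. With all rows, these shares were 10.7%, 6.73% and 4.75% in high libraries 1, 3 and 2, against 4.69%, 6.37% and 2.97% in controls 1 to 3. Low libraries had 3.19%, 6.86% and 4.17% and medium libraries 5.74%, 3.84% and 5.85% over all rows. Apart from high 1, no library exceeded 6.86% over all rows, and the groups overlapped.

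Kappa segments made up most of what was counted. They held 1339 member counts (80.3%), lambda segments 218 and heavy chain segments 111. Over all rows, kappa segments reached 12.7% of the 12977 counts on Igkc, while heavy chain segments reached 1.96% of the 16066 counts on the heavy chain constant genes. Of the 69 rows with counts that stayed under the threshold, 36 were heavy chain rows with 204 counts in all, none above 19, and 32 were kappa rows with 309 counts. Over all rows, heavy chain segments had 315 counts against 1648 for kappa, and only 2 heavy chain rows became members.

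The number of segments seen followed the number of counts. Of the 35 members, 4, 24 and 4 had a count in the control libraries, 4, 8 and 12 in the low, 14, 10 and 13 in the medium, and 35, 5 and 19 in the high libraries. Over all rows the numbers were 19, 40 and 11 in controls, 6, 12 and 16 at the low dose, 23, 17 and 23 at the medium dose and 63, 11 and 27 at the high dose. Together, the 3 control livers showed 59 segments, the low livers 26, the medium livers 48 and the high livers 70. High 3 showed fewer segments than control 2, 27 against 40, at nearly the same number of variable segment counts, 282 against 279.

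To bring libraries to a common number of counts, the distinct members expected in 14 member counts, the smallest total of any library, were computed. This number was 3.73, 10.5 and 4.0 in controls, 4.0, 7.03 and 8.23 at the low dose, 9.09, 7.58 and 8.54 at the medium dose, and 10.5, 4.83 and 8.43 at the high dose. The difference of group means from control was 0.36 for low, 2.34 for medium and 1.85 for high, beside an SD of 3.81 among controls. Every member had a count in high 1, so the measure leans toward that library. Over all rows with a count, at 21 counts, the differences were -3.49 for low, 0.45 for medium and -0.41 for high. High 1 and control 2 were equal on the member measure in spite of their different totals, 815 and 201 counts. The measure does not fully remove depth. Values of 1 or 2 were nearly absent, so a library with few counts can show only few segments. Control 3 and low 1, with 14 member counts each, were both at 4.0. The group differences on this measure therefore also carry depth.

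**Figure D2:**
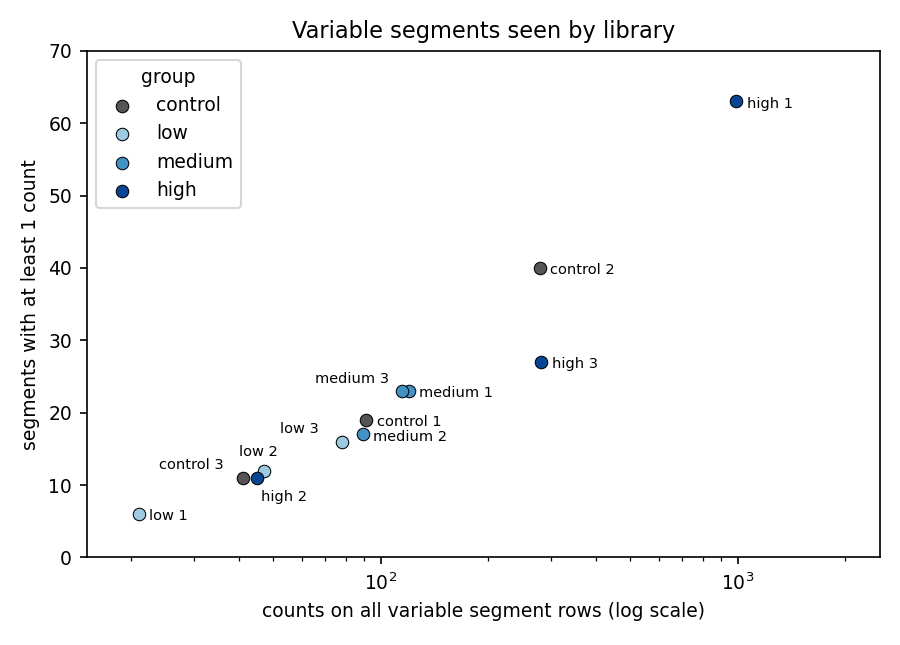
Segments with at least 1 count (y axis) against the counts on all 348 variable segment rows (x axis, log scale), 1 point per library, coloured by group. Segments seen climb with counts from 6 in low 1 to 63 in high 1, and high 3 (27 segments) lies below control 2 (40 segments) at nearly the same counts.

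Most members were patchy across mice. No member had a count in all 12 libraries. The median member was seen in 4 libraries, 9 were seen in 6 or more and 11 in 3 or fewer. For 17 of the 35, at least 50% of the summed counts came from 1 library. Within groups, the only members with a count in all 3 libraries were Ighv1-56 in control, Ighv1-56 and Iglv1 in low, Ighv1-56 and Igkv1-110 in medium, and Igkv14-126, Igkv9-120, Iglv1 and Iglv2 in high livers.

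Heavy chain members came down to Ighv1-56 and Ighv1-9. Ighv1-56 was the most widely seen member, in 11 libraries, with 14, 8 and 5 counts in controls, 2, 4 and 15 at the low dose, 4, 8 and 12 at the medium dose and 6, 0 and 5 at the high dose. In CPM the high libraries, at 0.056, 0 and 0.079, all lay below the controls, at 0.352, 0.121 and 0.111. The edgeR quasi-likelihood log2 fold change for high against control was -1.98 ± 1.04 (SE) with an adjusted p of 0.428, so this did not pass the test. Its mean level was thus lowest in the high group, where the summed level of all members was highest.

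Ighv1-9 had 21 counts in high 1, 4 in low 3 and 3 in control 2, and 0 in the other 9 libraries. Its variable exon differs from that of Ighv1-56 at 32 bases, as printed above, and the pair did not move together. In high 1, Ighv1-9 led the heavy chain members with 77.8% of their 27 counts (95% Wilson interval 59.2% to 89.4%). In the other 10 libraries with a heavy chain member count Ighv1-56 led, with 72.7% to 100% of counts. High 2 had none, and with 2 to 19 heavy chain member counts in those 10 libraries these shares rest on very few reads. With only 2 members to share the counts, a large leading share was also fixed in advance. Over all heavy chain rows the leading share was 48.3%, 28.6% and 50.0% in controls and 66.7%, 100% and 62.5% at the low dose. It was 36.4%, 53.3% and 41.4% at the medium dose and 15.9%, 50.0% and 23.8% at the high dose.

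Among kappa members, Igkv19-93 carried the largest single value, 102 counts in high 1. It had 11 counts in high 3, 5 in control 2, 4 each in medium 1 and medium 3, and 0 in the other 7 libraries. It held 14.8% of the 689 kappa member counts of high 1 (Wilson interval 12.3% to 17.7%), ahead of Igkv17-127 with 65 counts. No single segment thus took most of that library. Its effective number of kappa segments, the number of equally used segments that would give the same spread, was 16.5, close to the 16.7 of control 2. Both numbers are over members only, all of which had a count in high 1. Over all rows high 1 had 755 kappa counts on 42 segments and control 2 had 222 on 30.

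The 2 Igkv17 members, which differ at 6 bases, changed places between the high libraries. Igkv17-121 had 10, 0 and 69 counts in high 1, 2 and 3, against 0, 6 and 0 in controls, with 0, 4 and 4 at the low dose and 0, 10 and 0 at the medium dose. Igkv17-127 had 65, 0 and 9 counts in the high libraries, against 0, 14 and 0 in controls, with 5 counts in medium 1 as its only others. Summed, the Igkv17 pair had 75 counts in high 1, 78 in high 3 and 20 in control 2. Igkv17-121 led high 3 with 32.2% of 214 kappa counts (Wilson interval 26.3% to 38.8%), and Igkv15-103 came next there with 25. The effective number in high 3 was 6.82, so its kappa counts were more concentrated than those of high 1.

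Some members were seen in high 1 and nowhere else. These were Igkv11-125 with 57 counts, Igkv8-16 with 45 and Igkv3-10 with 27, the last 2 named after their values were seen. Igkv6-17 had 46 counts in high 1, Igkv8-27 had 37, and both were at 0 in high 2 and high 3. High 3 shared 16 of its kappa members with high 1, since high 1 had them all, yet their ranks differed. The 3 high livers had 3 different leading kappa segments.

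The other kappa members with large sums or a lead in a library were also at 0 in many libraries. Igkv10-96, which led controls 1 and 2, had 7, 17 and 0 counts in controls, 0 in each low library, 2, 7 and 0 at the medium dose and 22, 0 and 9 at the high dose. Igkv1-110 had 0, 10 and 0 counts in controls, 0 in each low library, 9, 6 and 11 at the medium dose and 18, 0 and 11 at the high dose. Igkv6-23 had 15 counts in control 2, 9 and 10 in medium 1 and 2, 11 in high 1, and 0 elsewhere. Igkv1-117, among the few members of high 2, had 8 counts there, 22 in high 1, 8 in low 2 and 8 in control 2. Igkv14-126 had 26, 3 and 15 counts in the high libraries, 4 in low 3 and 0 elsewhere, and Igkv4-68 had 17, 0 and 20 in the high libraries, 7 in control 2 and 4 in medium 1.

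**Figure D3:**
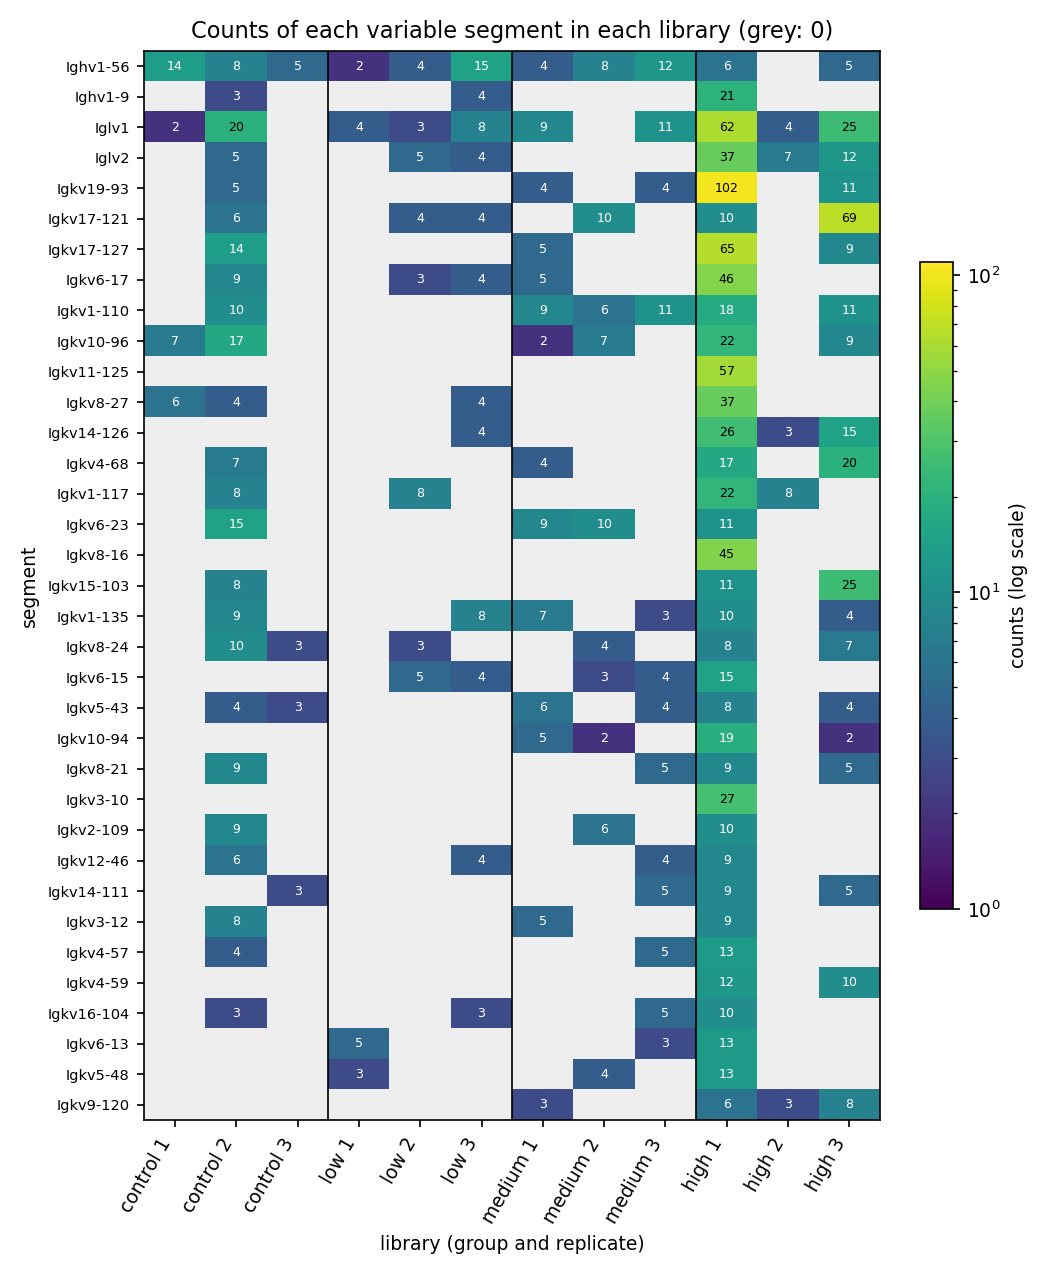
Counts of the members by library, 1 row per member and 1 column per library in dose order, with colour for the count on a log scale and grey for 0. High 1 has a count for every member, control 2 and high 3 for 24 and 19, and most other cells are at 0.

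Dominance was described by the share of kappa member counts held by the leading segment. In controls it was 53.8% in library 1 (Igkv10-96, 7 of 13), 10.3% in library 2 (Igkv10-96, 17 of 165) and 33.3% in library 3, where Igkv14-111, Igkv5-43 and Igkv8-24 tied at 3 of 9 counts. At the low dose it was 62.5% (Igkv6-13, 5 of 8), 34.8% (Igkv1-117, 8 of 23) and 22.9% (Igkv1-135, 8 of 35). At the medium dose it was 14.1% (Igkv1-110 and Igkv6-23, 9 of 64 each), 19.2% (Igkv17-121 and Igkv6-23, 10 of 52 each) and 20.8% (Igkv1-110, 11 of 53). At the high dose it was 14.8% (Igkv19-93), 57.1% (Igkv1-117, 8 of 14) and 32.2% (Igkv17-121).

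High shares went with low counts. The 3 libraries above 50% had 8 to 14 kappa counts, and their intervals were wide, as with 29.1% to 76.8% in control 1. Control livers averaged 32.5% ± 21.8, low livers 40.0% ± 20.3, medium livers 18% ± 3.51 and high livers 34.7% ± 21.3 (SD, n = 3 each). Over members, the differences from control were 7.55, -14.5 and 2.24 percentage points for low, medium and high. The first and last were well under the SD of the groups, and the groups overlapped. Without low 1 or without control 2 the low difference turned to -3.67 or -3.54 points, and without high 2 or control 2 the high difference turned to -8.97 or -8.86 points. Counting error alone is covered by the intervals, since reads from 1 cell are not independent.

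Across libraries 11 different kappa segments led or tied for the lead, 6 of them in 1 library each and 5 in 2. Where 1 segment led in 2 libraries, these were of the same group for Igkv10-96 (control), Igkv1-110 and Igkv6-23 (medium), and of different groups for Igkv1-117 (low and high) and Igkv17-121 (medium and high). With all kappa rows counted, the leading share was 11.7% in control 1, 13.5% in high 1 and 30.8% in high 3.

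**Figure D4:**
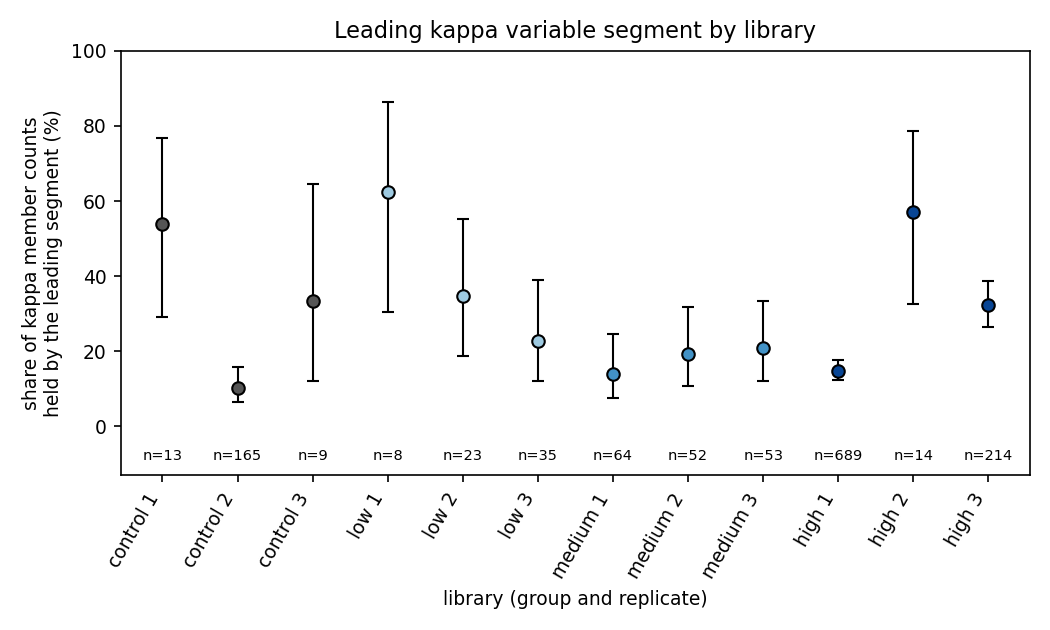
Share of kappa member counts held by the leading segment (y axis, percent) by library, points with 95% Wilson intervals and the number of kappa member counts (n) under each. The libraries above 50% are control 1, low 1 and high 2, each with few counts and a wide interval; high 1 at 14.8% and high 3 at 32.2% have the narrowest of the high group.

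Iglv1 had the largest sum of any member, with 2, 20 and 0 counts in controls, 4, 3 and 8 at the low dose, 9, 0 and 11 at the medium dose and 62, 4 and 25 at the high dose. Iglv2 had 0, 5 and 0 counts in controls, 0, 5 and 4 at the low dose, 0 in each medium library and 37, 7 and 12 at the high dose. In CPM, Iglv2 was at 0.343, 0.164 and 0.190 in the high libraries and at 0, 0.076 and 0 in controls, without overlap. Iglv1 led in 8 of the 10 libraries that had lambda counts, and Iglv2 in low 2 and high 2. The pair differs at 9 of 305 bases, so reads may be shared between them.

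In a test of single genes no member differed between a dose and control. The edgeR quasi-likelihood test, with Benjamini-Hochberg adjustment over all genes, covered 16839 genes with enough counts. These included 6 members, Ighv1-56, Igkv17-127, Igkv1-110, Igkv10-96, Igkv6-23 and Iglv1, and 29 members were too low to be tested. At an adjusted p under 0.05 it called 0 genes (0%) in each of the 3 comparisons, and 0 members. At an unadjusted p under 0.05 it had 5.99%, 5.58% and 12.8% of genes for low, medium and high, and 1, 0 and 0 of the 6 members. DESeq2 called 32, 80 and 157 genes and also 0 members.

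The member under 0.05 before adjustment was Igkv10-96 at the low dose, which was at 0 in all 3 low libraries against 7, 17 and 0 counts in controls (edgeR adjusted p = 0.813). For high against control, Iglv1 had a log2 fold change of 1.53 ± 1.27 (SE, adjusted p = 0.600), Igkv17-127 of 1.72 ± 1.79 (adjusted p = 0.686) and Igkv1-110 of 1.06 ± 1.5 (adjusted p = 0.776). Igkv10-96, at -0.28 ± 1.53, and Igkv6-23, at -1.01 ± 1.87, were on the other side of 0. For medium against control Igkv1-110 had 1.25 ± 1.5 and Iglv1 had -0.24 ± 1.28. At errors of 1 or more on the log2 scale, changes of several fold in a single segment were not detectable at this depth.

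With no filter on low counts, all 35 members entered a fit of 27086 genes. An unadjusted p under 0.05 was then reached by 1, 0 and 5 members for low, medium and high, beside 4.47%, 4.21% and 9.3% of genes, and the smallest adjusted p among members was 0.501. In the high comparison, 3 of 35 members lay above all controls in all 3 libraries, Igkv14-126, Igkv9-120 and Iglv2, beside 6.47% of genes. This share and those that follow are of the 16839 genes that passed the filter on low counts, which did not include these 3 members. Ighv1-56 was the only member below, beside 6.52%, and the only member with a count in all 3 controls. No other member could lie below, since a member at 0 in a control cannot be under all controls. At the low and medium doses none of the 35 members separated from the controls in either direction. The shares of genes were 7.41% higher and 6.36% lower for low and 7.61% and 6.38% for medium. A member at 0 in a dose library likewise cannot lie above all controls. A count in all 3 libraries was held by 2 members in low, 2 in medium and 4 in high livers. The same counts chose the members, so nothing is read from the numbers of members against these shares of genes. Igkv9-120, for one, had 6, 3 and 8 counts in the high libraries and 3 in medium 1, and passed the sum of 20 through the high group.

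The constant genes, the other part of the same transcripts, had more counts per gene. Igkc, the kappa constant exon, was at 19.6, 23.6 and 9.43 CPM in controls, 8.35, 5.59 and 8.07 at the low dose, 13.4, 14.5 and 11.3 at the medium dose and 40.6, 7.35 and 29.0 at the high dose. Ighm, the IgM heavy chain, was at 11.9, 18.8 and 9.16 CPM in controls, 8.31, 5.47 and 5.16 at the low dose, 7.82, 9.01 and 8.97 at the medium dose and 29.5, 7.31 and 19.8 at the high dose. In both, high 1 and high 3 were above all other libraries, as for the variable segments, and high 2 was below every control. Igkc had a log2 fold change of 0.55 ± 0.49 and Ighm of 0.51 ± 0.42 for high against control (SE, edgeR adjusted p = 0.628 and 0.599).

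Igha, the IgA heavy chain, was at 4.84, 0.75 and 5.23 CPM in the high libraries against 1.74, 1.65 and 0.91 CPM in controls. The IgG genes Ighg1, Ighg2b and Ighg3 were at 1.72, 1.88 and 1.67 CPM in high 1, 0.423, 0.117 and 0.329 CPM in high 2 and 2.49, 1.36 and 1.38 CPM in high 3, and at most 0.892 CPM in any control. High 2 was below every control for Ighg1 and Ighg2b, and none of these genes passed the test (edgeR adjusted p = 0.424, 0.490 and 0.441). Ighd, the IgD heavy chain that naive B cells carry, went the other way, with 2.22, 3.71 and 2.60 CPM in high libraries against 7.12, 13.4 and 5.95 CPM in controls, without overlap (log2 fold change -1.64 ± 0.37, edgeR adjusted p = 0.32). Of 11 constant genes tested, 7 were higher and 4 lower at the high dose with 0 called, and the median log2 fold change was 0.55 beside 0.03 for all genes. At the low dose 0 were higher and 11 lower (median -1.35, all genes 0.01), and at the medium dose 3 and 8 (median -0.63, all genes 0.02), again with 0 called. The lambda constant genes Iglc1, Iglc2 and Iglc3 had log2 fold changes of -0.60 ± 0.45, -0.85 ± 0.39 and -1.43 ± 0.48 (SE) at the high dose, while both lambda variable members had their largest counts there. Ighg2c had a log2 fold change of 0.75 ± 1.48, Ighe was at 0.05 CPM or less, and Iglc4 was at 0 in 10 of the 12 libraries.

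Jchain, the chain that links secreted IgM and IgA into polymers, was at 5.08, 2.37 and 5.64 CPM in the high libraries against 2.39, 0.65 and 1.58 CPM in controls. Its log2 fold change was 1.52 ± 0.44 (SE) with an edgeR adjusted p of 0.365, and the groups met at 2.37 CPM in high 2 and 2.39 CPM in control 1. Control 2, next after high 1 and high 3 in summed member level, had the lowest Jchain of all libraries. The plasma cell list as a whole was mixed. Of 14 tested genes, 5, 6 and 7 were higher and 9, 8 and 7 lower at the low, medium and high doses, with 0 called and medians of -0.36, -0.09 and 0.05. Among its defining markers, Tnfrsf17 (the survival receptor BCMA) was at 0 in all 12 libraries and Mzb1, an endoplasmic reticulum chaperone cofactor, at 1.73 CPM or less. Sdc1 and Xbp1 are also expressed by hepatocytes.

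Markers of B cells had another order of libraries than the variable segments. The 18 listed genes, among them Ms4a1 and Cd79b, were all lower than control at every dose, with medians of -1.0, -0.91 and -1.44 on the log2 scale for low, medium and high and 0 called. For high against control, Ms4a1 had a log2 fold change of -1.80 ± 0.44 (SE, edgeR adjusted p = 0.32). The summed level of the list was 34.3, 66.0 and 31.7 CPM in controls, 29.2, 20.6 and 11.9 at the low dose, 18.6, 24.7 and 24.2 at the medium dose, and 14.2, 19.1 and 13.2 at the high dose. Control 2 therefore joined a high variable segment level to the highest B cell marker level, and high 1 and high 3 joined theirs to low ones, with high Jchain and Igha.

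**Figure D5:**
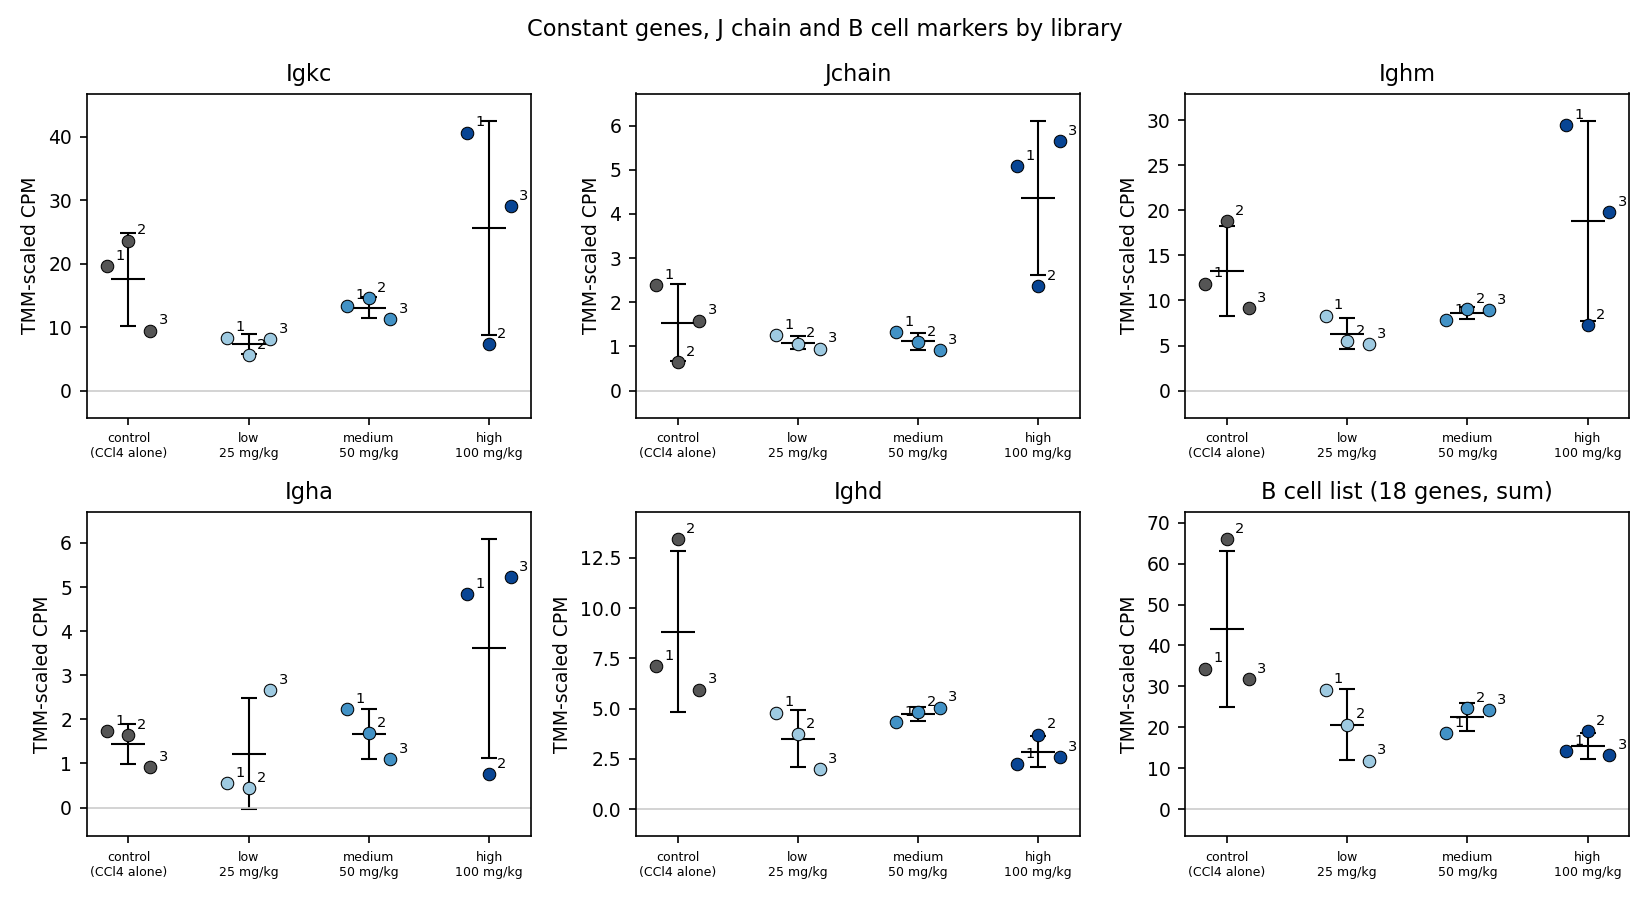
Levels of Igkc, Jchain, Ighm, Igha, Ighd and the summed B cell list by library, in TMM-scaled CPM (y axes); points are libraries numbered by replicate, and bars are the mean ± SD of 3. High 1 and high 3 are highest for Igkc, Ighm, Jchain and Igha and low for Ighd and the B cell list, where control 2 is highest.

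Other listed cell types were read the same way, and none had a called gene. Of 5 tested germinal centre and class switch genes, 4, 5 and 4 were lower at the low, medium and high doses. All 4 tested B cell precursor genes were lower at every dose, and the recombinase genes Rag1 and Rag2 were at 0. Of 4 tested stroma genes of lymph nodes and follicles, 3 were higher at each dose, and nearly all of their summed level came from Clu, a secreted chaperone that liver also makes, at 135, 35.9 and 93.6 CPM in high libraries against 60.5, 45.6 and 39.6 CPM in controls. The follicle chemokine Cxcl13 was at 0.445, 0.517 and 0.570 CPM in high libraries against 0.126, 2.63 and 0.290 CPM in controls. T cell genes were lower for 5, 5 and 6 of 8 tested. Genes of plasma cell survival and homing were higher for 2, 3 and 4 of 7. The median log2 fold changes at the low, medium and high doses were -0.20, -0.39 and -0.63 for the germinal centre list and -0.43, -0.51 and -0.72 for the precursors. They were 0.17, 0.04 and 0.84 for the stroma, -0.19, -0.25 and -0.37 for T cells and -0.30, -0.24 and 0.17 for survival and homing.

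The summed level of the 6 hepatocyte genes, such as Alb and Ttr, also differed widely between libraries. It was 45919 and 28558 CPM in high 1 and high 3 and 4255 CPM in high 2, against 11422, 5994 and 5506 CPM in controls. It was also high in low 3, at 33156 CPM, and in medium 1, at 25649 CPM, where the member levels were 0.728 and 1.19 CPM. All 6 were higher at each dose, with medians of 0.81, 0.79 and 1.49 on the log2 scale and 0 called. High 1 and high 3, with the highest variable segment levels, had low mitochondrial shares, but so did low 3, at 43.0%. Relative to counts outside mitochondrial genes and their copies, member levels were 22.4, 2.84 and 16.3 CPM in high libraries against 3.19, 15.7 and 1.48 CPM in controls, a log2 ratio of 1.03. The part of RNA composition in the segment totals was not tested.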

How the data were processed

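Raw counts per gene for the 12 liver libraries were used as the authors deposited them. StringTie 2.2.1, fastp 0.23.4 and STAR 2.7.10b, with the mm39 build, are named in the submitters' processing notes. The step that made the counts, its strand setting and its treatment of shared reads are not given in the sources used here, so antisense reads cannot be told apart. Symbols (52073 of 56923 IDs), exon lengths and sequences came from GENCODE M21, which is on another build, so no coordinates are given. All 12 columns matched a label.

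Tests used edgeR 4.0.16 in R 4.3.3 (filterByExpr, TMM, robust quasi-likelihood, all 12 libraries in 1 fit, Benjamini-Hochberg over all genes), checked on simulated data. DESeq2 1.42.0 was an alternative, with others on scaling, filters, the replicate block and libraries left out. Mitochondrial copies (11 genes) were found with BLAST+ 2.17.0. P-values set a group difference against the spread between mice of the same group, estimated over all groups together. No pair of libraries within a group agreed within sampling noise, and pairs from different groups were not compared. At 36015134 to 70376474 counts per library, most members had fewer than 10 counts in a library, and intervals cover counting error only.

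The members, the 9 gene lists and the tests were chosen with earlier results of these data known. Named were the leading segment in each library and locus, the members with the largest sums (up to 10 per locus), those with the smallest p, those nearest the threshold, and up to 4 genes of a list. Segment promoters and proteins were not used here.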

Additional observations from a re-analysis of the deposited data

Results flagged for a closer look

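Igkv1-110 was above the control mean in all 3 medium libraries and at 0, below it, in all 3 low libraries, and the dose means differed by 0.134 CPM. Jchain was above the control mean in all 3 high libraries and below it in all 3 low and all 3 medium libraries, and the high mean was higher by 3.28 CPM than the low mean and by 3.25 CPM than the medium mean. These were picked because every library lay 1 way in 1 dose group and the opposite way in the other. The edgeR test of the difference between the doses gave an adjusted p of 1.00 for Igkv1-110, medium minus low, and for Jchain an adjusted p of 0.993 for high minus low and 0.857 for high minus medium.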

How the results depend on the processing

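No member passed the threshold under any alternative run. DESeq2 called 32, 80 and 157 genes for low, medium and high where edgeR called 0, and leaving out 1 library gave 0 to 2 for low (2 without low 3) and 0 for medium and high. With the replicate number as a block, 0 genes and 0 members were called in each comparison. Of 18 same-numbered pairs, 5 had a correlation of deviations above 0.1 (-0.26 to 0.45). Differently numbered pairs were not compared, so this cannot decide whether the numbers pair mice. The log2 ratio of summed level for medium turned to 0.024 with library totals and 0.18 with segments summing to 100 or more. Leaving out 1 library with the members kept, it ranged from -1.33 to 0.53 for low, -0.78 to 1.08 for medium and 0.77 to 2.96 for high. Members expected at equal depth differed from control by -0.59 (low, 5 or more counts) and, over all rows with a count, by -3.49 (low) and -0.41 (high). Leaving out 1 library gave -0.81 to 2.56 for low, 1.17 to 4.54 for medium and 0.56 to 4.05 for high. For the leading heavy chain share the main differences were 2.07, 9.09 and -2.02 points for low, medium and high. They were 0 at all doses when families were counted, which was fixed in advance since both members are of the family Ighv1. Over all rows the difference was 34.1 points for low. Leaving out 1 library gave -7.02 to 9.09, 0 to 13.6 and -13.1 to 9.09 points. For kappa these ranges were -3.67 to 18.2, -25.6 to -3.80 and -8.97 to 12.9 points. Counts per exon base, chosen after seeing the data, changed none of these shares beyond the spread between libraries. For the heavy chain they could change nothing, since both members have exons of 351 bases. Of 198 refitted values of the tested members, 20 changed sign or went to 0, and 0 passed the threshold. Those at 0 were Igkv17-127, Igkv1-110 and Igkv6-23 for low without control 2, where neither group had a count left. The causes were not tested. Few counts per segment limit every single-segment value.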
